A study of Mus musculus with 6 samples.

Results

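MHC class I presentation was described through 10 genes, chosen by symbol from the 32285 gene rows that all 6 libraries share: the classical heavy chains H2-K1 and H2-D1, the light chain B2m, the Q-region heavy chains H2-Q4, H2-Q7 and H2-Q10, the peptide-loading genes Tap1, Tap2 and Tapbp, and the regulator Nlrc5. All 10 symbols were found, and all 10 passed the filter on low counts in each comparison. The libraries are droplet 3′ single-cell RNA sequencing of cells from mice given 10000 SB28 cells, a mouse glioma line, and examined at day 18. There were 2 libraries of neutrophils sorted from the brain tumor, 2 of neutrophils sorted from the blood, and 2 of unselected CD45+ cells of the tumor, CD45 being the surface marker of leukocytes. The sort in both tissues took cells with CD45, CD11b and high LY6G and with little or no LY6C.

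Every mouse carried a tumor, so the blood cells are from tumor-bearing animals too, and no tumor-free group is described here. Blood was drawn first and the animals were then perfused with saline before the tumor was taken. Genotype, strain, age and sex of the mice are not stated in the labels used here. The labels number the samples 1 and 2 but do not say that they are separate mice, so a p-value here tells of the spread among the libraries alone, and that spread may be technical.

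Neutrophils were taken in every library as cells with at least 0.5% of their UMIs (unique molecular identifiers, the counted transcripts) in S100a8 and S100a9, a pair of genes that makes calprotectin. The rule gave 3392 and 5567 neutrophils in the sorted tumor libraries and 2990 and 5087 in the sorted blood libraries. The CD45+ libraries held 615 and 824 neutrophils by this rule, with 8060 and 7352 other cells. Levels are a gene's UMIs per 1000000 UMIs (CPM), both summed over the cells of one class in one library. The tests were run on those sums with edgeR's quasi-likelihood test, and p-values were adjusted over all genes tested by the Benjamini-Hochberg method. The test estimates the spread of a gene in part from all genes tested, not from its own libraries alone. "Higher" or "lower" without further words means an adjusted p under 0.05.

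A class I molecule is a membrane heavy chain paired with the invariant light chain beta-2 microglobulin, encoded by B2m, and a short peptide. Peptides cut by the proteasome are pumped into the endoplasmic reticulum by TAP, a transporter built from the Tap1 and Tap2 proteins, and tapasin, encoded by Tapbp, holds the empty molecule beside TAP until a peptide is bound. The finished complex is read by CD8 T cells and by receptors of natural killer cells. H2-K1 and H2-D1 encode classical, highly polymorphic heavy chains. H2-Q7 encodes a Qa-2 antigen, which is tethered by a lipid anchor, and H2-Q10 encodes a secreted heavy chain best known from mouse liver. Interferons raise class I transcription, partly through NLRC5, which is recruited to class I promoters.

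Of the 10 genes, 8 lie in the major histocompatibility complex on chromosome 17 of mm10 and all are protein coding. Tapbp spans chr17:33915899-33929292 and H2-K1 spans chr17:33996017-34000347 on the minus strand. Tap1 lies at chr17:34187553-34197225 and Tap2 at chr17:34203527-34216321. The 5′ ends of Tap1 and of Psmb9, an immunoproteasome subunit on the opposite strand, overlap, with starts 211 bases apart. H2-D1 lies at chr17:35262730-35267499, followed by H2-Q4 at chr17:35379617-35385290, H2-Q7 at chr17:35439155-35443773 and H2-Q10 at chr17:35470089-35474563. B2m lies apart at chr2:122147686-122153083, and Nlrc5 spans chr8:94434356-94527272 with 53 exons in its longest transcript. Heavy chain genes are near copies of each other, so the last 500 bases of each gene's longest transcript, where a 3′ read falls, were searched for 50-base stretches shared with other genes. H2-Q4 shared 33.7% of these stretches, H2-D1 9.53% and H2-Q7 6.21%, H2-K1 and H2-Q10 0.443% each and the other 5 genes 0%. Counts of H2-Q4 are therefore the least certain.

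Promoters are shown for the 5 heavy chain genes so that the letters of H2-Q10, whose levels follow their own pattern below, can be read beside those of its relatives. The stretches are from RefSeq promoters on GRCm38.p6, given 5′ to 3′ on the gene's own strand. RefSeq places the start of H2-D1 further in than the gene coordinates above, so its stretch lies inside the gene span given there. Capitals mark matches to 4 motifs, searched on both strands: a kappa B element (GGGATTCCC), an interferon-stimulated response element (GTTTCNNTT), the core of a cAMP response element (TGACG) and a Y box (CCAAT, read as ATTGG on the other strand). The stretches are H2-K1 at chr17:34000348-34000469 on the minus strand, and on the plus strand H2-D1 at chr17:35262912-35263033, H2-Q4 at chr17:35379432-35379553, H2-Q7 at chr17:35439010-35439131 and H2-Q10 at chr17:35469902-35470023.
H2-K1: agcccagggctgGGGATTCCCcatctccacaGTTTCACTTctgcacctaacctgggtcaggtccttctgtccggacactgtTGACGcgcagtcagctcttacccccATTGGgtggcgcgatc
H2-D1: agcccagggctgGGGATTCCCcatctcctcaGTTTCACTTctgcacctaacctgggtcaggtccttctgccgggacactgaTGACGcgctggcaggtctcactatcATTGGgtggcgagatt
H2-Q4: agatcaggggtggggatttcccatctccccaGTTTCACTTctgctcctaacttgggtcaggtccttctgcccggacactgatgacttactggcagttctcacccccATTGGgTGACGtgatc
H2-Q7: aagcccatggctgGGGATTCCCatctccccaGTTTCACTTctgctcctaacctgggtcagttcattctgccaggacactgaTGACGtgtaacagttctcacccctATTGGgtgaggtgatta
H2-Q10: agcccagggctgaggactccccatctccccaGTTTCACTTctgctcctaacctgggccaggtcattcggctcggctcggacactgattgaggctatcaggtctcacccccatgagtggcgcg

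H2-K1, H2-D1 and H2-Q7 held all 4 motifs in the window from 250 bases before to 50 bases after the start. H2-Q4 held 3, without the kappa B letters, and H2-Q10 held 1, the interferon-stimulated response element. Only the letters given were counted, so near matches, such as gggatttccc in H2-Q4, were left out. Over the 32851 promoters of the table, 0.353% held the kappa B letters, 5.77% the interferon-stimulated response element, 20.8% the cAMP response core and 37.4% the Y box. All 4 occurred together in 5 promoters (0.0152%), which were the 2 entries of H2-K1 and those of H2-D1, H2-Q7 and Zfp263. B2m and Tap1 held the cAMP response core and the Y box, and Tapbp held the Y box. A match describes letters in this window and not a bound site, and the promoters of Tap2 and Nlrc5 were not analysed here.

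The cells called neutrophils carried neutrophil markers in every library, but in the tumor they also carried RNA of macrophages. None of 10 neutrophil markers was at 0 in any library, and their summed level was 76885 and 86171 CPM in sorted tumor, 169100 and 164100 CPM in sorted blood and 47124 and 51183 CPM in CD45+ tumor neutrophils. These markers include S100a8 and S100a9, by which the cells were called, so the sum is not an independent check of the call. Csf3r, a gene outside the rule, was at 844 and 705 CPM in sorted tumor and 3015 and 2770 CPM in sorted blood neutrophils. In CD45+ tumor neutrophils Csf3r was at 751 and 564 CPM, against 30.7 and 32.8 CPM in the other cells of those libraries. The 3 complement C1q genes, made by macrophages and microglia, summed to 2144 and 1581 CPM in sorted tumor neutrophils, against 7.41 and 42.4 CPM in sorted blood neutrophils. In CD45+ tumor neutrophils they reached 2916 and 4511 CPM, 72.5% and 96.3% of the 4023 and 4686 CPM of the other cells of the same libraries. None of 10 macrophage markers was at 0 in any library, although the sort had asked for high LY6G, and Ly6g itself was at 18.4 and 18.7 CPM in sorted tumor and 85.1 and 81.8 CPM in sorted blood neutrophils. The 10 macrophage markers summed to 5078 and 3908 CPM in sorted tumor, 357 and 476 CPM in sorted blood and 8639 and 13718 CPM in CD45+ tumor neutrophils, while all 6 natural killer cell markers were at 0 in both sorted tumor libraries. Separately, the first CD45+ library and the second sorted tumor library shared 162 cell barcodes, where other pairs of libraries shared 3 to 35. In 143 of these barcodes the CD45+ copy had under 5% of the UMIs of the sorted copy. The shared barcodes made up 55 of the 615 neutrophils of that CD45+ library and 70 of the 5567 of that sorted library. Without them the neutrophils of that sorted library held 22609371 instead of 24486349 UMIs. Their C1q sum was then 645 instead of 1581 CPM, and that of the CD45+ library 2602 instead of 2916 CPM. Results are therefore also given for neutrophils with no UMI of C1qa, C1qb, C1qc, Apoe or Ms4a7, and without the shared barcodes.

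Sorted tumor neutrophils differed from sorted blood neutrophils in most of the 10 genes, but not in one direction. H2-D1, H2-Q10 and Tap2 were 0.498, 0.288 and 0.470 times their blood level, Tap1 and Tapbp were lower by less, and H2-Q7, Nlrc5, H2-Q4 and B2m were higher in the tumor. In all, 4 of 10 were higher and 5 were lower, where 33.3% and 30.8% of the 13662 genes tested were higher and lower, and 64.1% passed in either direction. The groups did not overlap for the 9 genes that passed, and the median log2 change was -0.04 over the 10 genes and 0.02 over all genes tested. In such sums, fewer cells with a transcript and less RNA per cell cannot be told apart. Among neutrophils with no macrophage-marker UMI, which left 1684 and 2628 sorted tumor and 2534 and 3871 sorted blood cells, 2 genes were higher and 3 lower, against a background of 29.0% and 28.6% of 11595 genes, or 57.6% in either direction. This setting was planned, and the background counts for it were added after seeing the data.

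**Figure D1:**
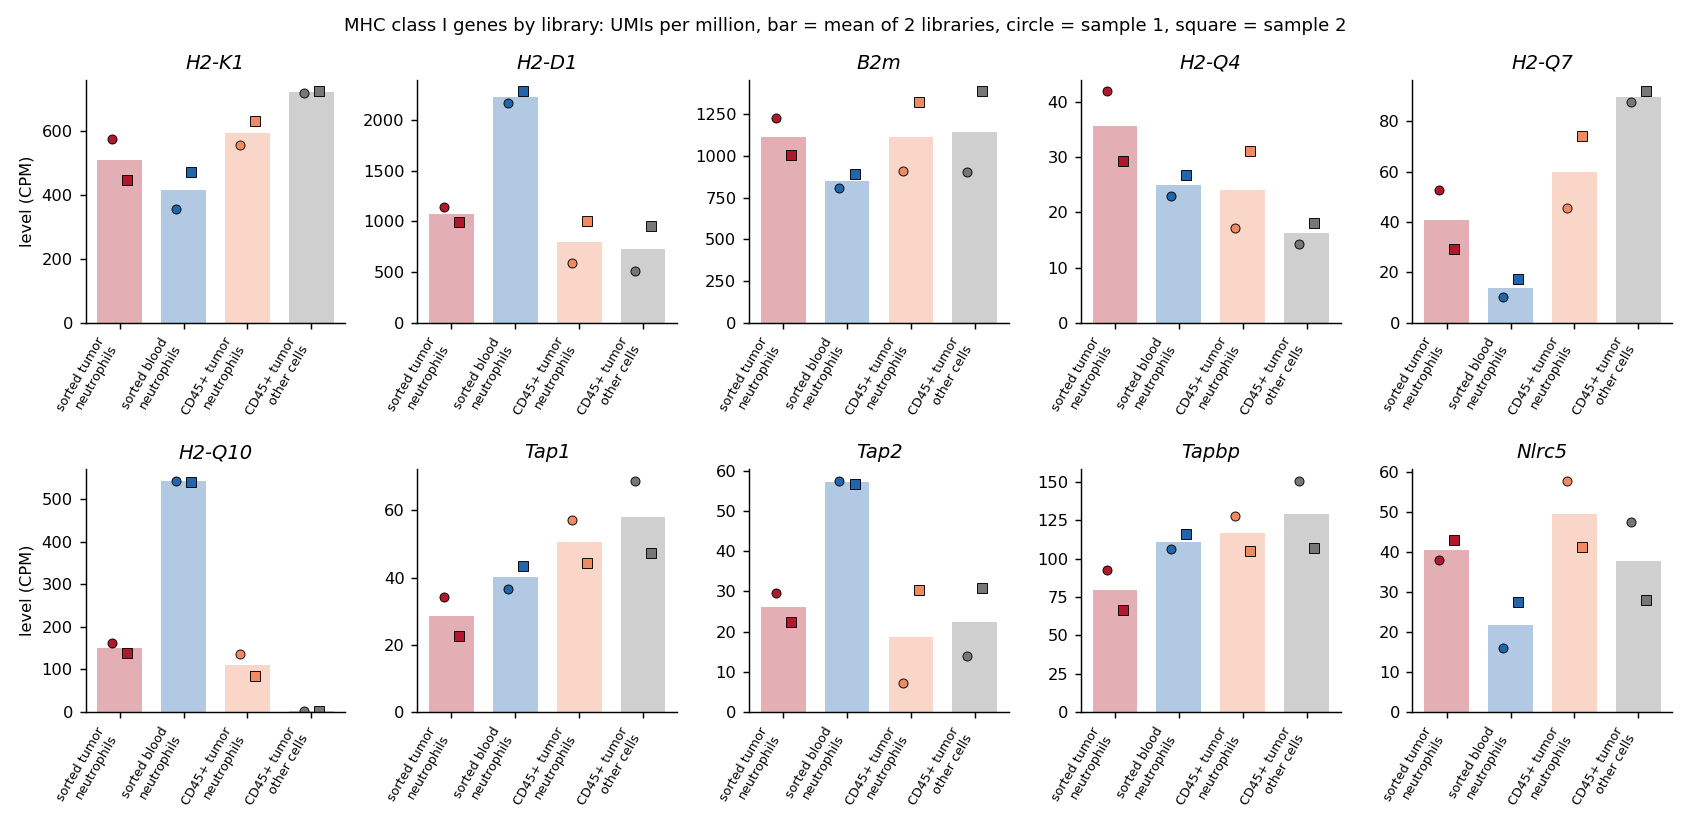
Level of each of the 10 genes in CPM (linear axes from 0), with a bar for the mean of 2 libraries, a circle for sample 1 and a square for sample 2. Sorted tumor neutrophils lie at 1139 and 997 CPM of H2-D1 and 162 and 139 CPM of H2-Q10, below 2168 and 2281 CPM and 544 and 541 CPM in sorted blood neutrophils, and the other cells of the CD45+ libraries have almost no H2-Q10.

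The classical heavy chains moved apart. H2-D1 was at 1139 and 997 CPM in sorted tumor neutrophils, against 2168 and 2281 CPM in sorted blood neutrophils. Both tumor libraries lay below both blood libraries, and the log2 change was -1.01 ± 0.14 (SE, n = 2 libraries each; edgeR adjusted p = 0.000694). H2-K1 was at 576 and 448 CPM in sorted tumor neutrophils and at 357 and 474 CPM in sorted blood neutrophils. The second tumor library lay inside the blood range, and the log2 change of 0.35 ± 0.16 did not pass (edgeR adjusted p = 0.0827). The light chain gene B2m was at 1228 and 1006 CPM in sorted tumor neutrophils, against 810 and 895 CPM in sorted blood neutrophils, a log2 change of 0.44 ± 0.14 (edgeR adjusted p = 0.0234).

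Leaving out macrophage-marked cells kept H2-D1 but not B2m. H2-D1 stood at 984 and 890 CPM in sorted tumor and 2179 and 2284 CPM in sorted blood neutrophils (log2 change -0.90, edgeR adjusted p = 3.70e-04). B2m then stood at 865 and 734 CPM in sorted tumor and 812 and 890 CPM in sorted blood neutrophils, so the groups overlapped (log2 change 0.27, edgeR adjusted p = 0.0969). The call of B2m also ended without the shared barcodes (edgeR adjusted p = 0.12), without the first blood library (0.17) and without the second blood library (0.088). H2-K1 passed in 2 of 17 alternatives, one of them the fit without the second blood library (log2 change 0.52, edgeR adjusted p = 0.043), and H2-D1 passed in all 17.

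The 3 Q-region genes split in the same comparison. H2-Q10 was at 162 and 139 CPM in sorted tumor neutrophils, against 544 and 541 CPM in sorted blood neutrophils, from 2566 and 3408 UMIs in the tumor and 7115 and 10761 UMIs in the blood. It had the lowest log2 change of the 10 genes, -1.80 ± 0.12 (edgeR adjusted p = 1.89e-05), and the distance between the groups was far larger than the spread within either. H2-Q7 was at 52.5 and 29.2 CPM in sorted tumor neutrophils, against 10.4 and 17.2 CPM in sorted blood neutrophils. Both tumor libraries lay above both blood libraries, the first by the wider margin, with a log2 change of 1.59 ± 0.28 (edgeR adjusted p = 0.00194). H2-Q4 was at 42.0 and 29.4 CPM in sorted tumor neutrophils, against 23.1 and 26.9 CPM in sorted blood neutrophils (log2 change 0.56 ± 0.16, edgeR adjusted p = 0.0162). Its tumor libraries were both higher, the second by a narrow margin.

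Of the 10 genes, H2-Q7 moved most when macrophage-marked cells were left out. It then stood at 25.2 and 12.3 CPM in sorted tumor neutrophils and at 10.4 and 16.6 CPM in sorted blood neutrophils. The groups then overlapped, the log2 change was 0.79 and the edgeR adjusted p was 0.0554. H2-Q10 kept its direction and its call at 189 and 158 CPM in sorted tumor and 552 and 541 CPM in sorted blood neutrophils (log2 change -1.30, edgeR adjusted p = 3.05e-05). H2-Q4 also kept its call (log2 change 0.77, edgeR adjusted p = 0.00401). Without the shared barcodes instead, H2-Q7 in the second sorted tumor library was at 20.2 in place of 29.2 CPM. That lay nearer the 17.2 CPM of the second blood library, and H2-Q7 kept its call (log2 change 1.46, edgeR adjusted p = 0.0226). H2-Q4 lost its call without the first sorted tumor library (log2 change 0.39, edgeR adjusted p = 0.057) and without the first blood library (0.47, edgeR adjusted p = 0.064).

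The 3 peptide-loading genes were all lower in sorted tumor neutrophils, Tap2 by the most. Tap2 was at 29.6 and 22.5 CPM in sorted tumor neutrophils, against 57.5 and 56.7 CPM in sorted blood neutrophils (log2 change -1.09 ± 0.13, edgeR adjusted p = 3.11e-04). Its groups were far apart, and it passed in all 17 alternatives. Tap1 was at 34.4 and 22.7 CPM in sorted tumor neutrophils and at 36.5 and 43.6 CPM in sorted blood neutrophils, with a gap between the groups smaller than the spread within either. Its log2 change of -0.45 ± 0.17 passed narrowly (edgeR adjusted p = 0.0495). Tapbp was at 92.3 and 66.6 CPM in sorted tumor neutrophils, against 106 and 116 CPM in sorted blood neutrophils (log2 change -0.44 ± 0.13, edgeR adjusted p = 0.0228).

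The calls of Tap1 and Tapbp were the weakest of the 5 genes that were lower. Among neutrophils with no macrophage-marker UMI, Tap2 had a log2 change of -0.9985 (edgeR adjusted p = 4.47e-04), whereas Tap1 had -0.38 (edgeR adjusted p = 0.133) and Tapbp -0.34 (edgeR adjusted p = 0.0708). Without the second sorted tumor library, Tap1 had a log2 change of -0.25 (edgeR adjusted p = 0.19) and Tapbp of -0.29 (edgeR adjusted p = 0.077). Without the second blood library the values were -0.36 (edgeR adjusted p = 0.15) and -0.42 (edgeR adjusted p = 0.071), and without the shared barcodes the adjusted p was 0.103 for Tap1 and 0.061 for Tapbp.

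Nlrc5, the class I transactivator, was higher in the tumor, where the 3 loading genes were lower. It was at 37.9 and 43.1 CPM in sorted tumor neutrophils, against 15.9 and 27.4 CPM in sorted blood neutrophils, from 602 and 1055 UMIs in the tumor and 208 and 545 UMIs in the blood. Both tumor libraries lay above both blood libraries, with a log2 change of 0.97 ± 0.24 (edgeR adjusted p = 0.00902). Without macrophage-marked cells the log2 change was 1.29 (edgeR adjusted p = 9.76e-04), and Nlrc5 passed in all 17 alternatives. Nlrc5, H2-D1, Tap2 and H2-Q10 were the 4 genes that did so.

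**Figure D2:**
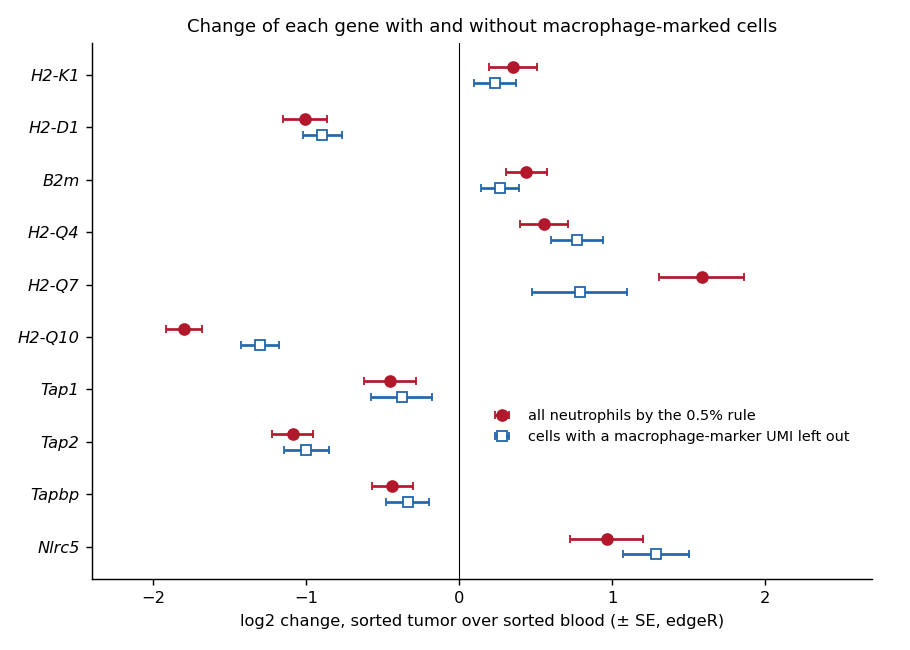
Log2 change of each gene in sorted tumor over sorted blood neutrophils (x axis, edgeR, bars are ± 1 SE, 2 libraries a group), for all neutrophils by the 0.5% rule (filled circles) and with cells that hold a macrophage-marker UMI left out (open squares). H2-Q7 lies at 1.59 in the first setting and at 0.79 in the second, while H2-D1, Tap2, H2-Q10 and Nlrc5 stay on their side of 0 by several standard errors.

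The other genes of the pathway are described by their counts, beside the 33.3% of all genes tested that were higher, the 30.8% that were lower and the median log2 change of 0.02. Of 16 genes for peptide supply and chaperones, 6 were higher, near the background share, and 3 lower, with a median log2 change of 0.21. Canx and Calr, the lectin chaperones calnexin and calreticulin that fold class I heavy chains, averaged 90.2 and 134.7 CPM in sorted tumor neutrophils, against 23.8 and 44.1 CPM in sorted blood neutrophils (log2 changes 1.97 and 1.66, edgeR adjusted p = 2.47e-05 and 3.13e-05). Psmb9, the immunoproteasome subunit that shares its 5′ end with Tap1, averaged 29.9 CPM in sorted tumor and 91.9 CPM in sorted blood neutrophils (log2 change -1.58, edgeR adjusted p = 9.00e-05). Lnpep, an aminopeptidase that trims peptides in endosomes, was also lower (log2 change -0.44, edgeR adjusted p = 0.0202). Without macrophage-marked cells the list had 6 higher and 3 lower and a median of 0.03, but not the same genes were lower. Lnpep was at -0.06 and did not pass (edgeR adjusted p = 0.678). The 3 lower were Psmb9, Psmb8 and Psme1 (log2 changes -1.85, -0.81 and -0.63, edgeR adjusted p = 1.60e-05, 0.00322 and 0.00702).

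Of 16 genes for transcription factors of class I genes, interferon receptors and receptor kinases, 3 were higher and 9 lower. Of all genes tested 33.3% and 30.8% were, and the median log2 change over the 16 was -0.39. Jak2, a kinase of the interferon gamma receptor, and Nfyb, a subunit of the factor that binds Y boxes, had the largest rises (log2 changes 1.38 and 0.79, edgeR adjusted p = 7.06e-05 and 0.00123). Irf2, an interferon regulatory factor, and Ifngr2, a chain of the interferon gamma receptor, had the largest falls (log2 changes -1.36 and -1.19, edgeR adjusted p = 7.62e-05 and 2.30e-04). Without macrophage-marked cells 4 were higher and 6 lower, with a median of -0.12.

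Of 15 other class I heavy chain genes, 8 were tested, of which 4 were higher and 3 lower, against the same background of 33.3% and 30.8%. Fcgrt, the heavy chain of the neonatal Fc receptor, and Mr1, which presents vitamin B metabolites, had the largest rises (log2 changes 4.29 and 3.69, edgeR adjusted p = 1.11e-04 and 3.05e-04). Cd1d1, which presents lipids, and H2-T24 had the largest falls (log2 changes -1.43 and -1.35, edgeR adjusted p = 0.0146 and 1.16e-04). The median was 0.73 over these 8 genes, but without macrophage-marked cells 6 genes were left, 1 of them higher and 3 lower, with a median of -0.60. Neither Fcgrt nor Mr1 was among them.

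Of 10 class II genes, which serve antigen presentation to CD4 T cells, 5 were higher and the other 5 did not pass (median log2 change 0.79; 33.3% of all genes tested were higher). Ctss, the protease that degrades the class II invariant chain, and H2-Oa, a chain of the inhibitor of class II peptide exchange, had the largest rises (log2 changes 3.53 and 1.98, edgeR adjusted p = 2.47e-05 and 0.0214). Without macrophage-marked cells 7 were tested, and Ctss alone was higher (log2 change 1.08, edgeR adjusted p = 3.57e-04). Of 17 interferon-stimulated genes tested, 13 were higher and the other 4 did not pass, where 33.3% of all genes tested were higher, with a median log2 change of 2.38 over the list. Cxcl10, a chemokine that attracts T cells, averaged 106.0 CPM in sorted tumor and 0.304 CPM in sorted blood neutrophils (log2 change 8.47, edgeR adjusted p = 2.46e-06). Iigp1, an interferon-inducible GTPase, averaged 3.87 CPM in sorted tumor neutrophils and 0.0251 CPM in sorted blood neutrophils, where it was near the limit of detection. Without macrophage-marked cells 12 of 15 tested were higher, with a median of 2.16.

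The change of H2-D1 and of H2-Q10 was also visible as a share of cells. After each cell was thinned to 1000 UMIs, 56.8% and 53.5% of sorted tumor neutrophils had a UMI of H2-D1, against 84.2% and 85.9% of sorted blood neutrophils. H2-Q10 was found in 14.6% (95% exact interval 13.45 to 15.89) and 12.8% (11.95 to 13.76) of sorted tumor neutrophils, against 40.7% (38.93 to 42.56) and 39.2% (37.81 to 40.68) of sorted blood neutrophils. The intervals cover counting error only, and the groups were far apart for both genes. For H2-K1 the shares were 32.8% and 27.6% in sorted tumor and 28.8% and 35.8% in sorted blood neutrophils, and for B2m 52.6% and 48.5% in sorted tumor and 51.2% and 54.9% in sorted blood neutrophils, so the groups overlapped for both. Thinning left out 99 and 184 sorted tumor and 130 and 573 sorted blood neutrophils as shallower. Unthinned, at median depths of 3912.5 and 3874 UMIs in sorted tumor and 4259 and 3966 UMIs in sorted blood neutrophils, 85.6% and 82.6% of tumor cells and 97.9% and 96.3% of blood cells had a UMI of H2-D1. For H2-Q10 the unthinned shares were 38.2% and 32.7% in sorted tumor and 78.1% and 73.2% in sorted blood neutrophils.

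Within the sorted tumor libraries the genes followed different orders along the share of UMIs in S100a8 and S100a9, the quantity used to call neutrophils. The C1q sum was at 4943 and 6156 CPM in the lowest class, 0.5 to 1%, and at 158 and 149 CPM in the highest, 10% and over. H2-K1 was at 902 and 774 CPM in the lowest class and 331 and 302 CPM in the highest, and H2-Q7 was at 90.6 and 83.8 CPM in the lowest and 14.7 and 9.81 CPM in the highest. B2m was at 1804 and 1853 CPM in the lowest and 651 and 607 CPM in the highest. In sorted blood neutrophils, H2-K1 was at 411 and 804 CPM in the lowest class and 322 and 416 CPM in the highest. B2m there was at 946 and 1217 CPM in the lowest and 705 and 774 CPM in the highest. The C1q sum of these blood cells was at 0 and 151 CPM in the lowest class and 0.219 and 0.740 CPM in the highest. In the sorted tumor libraries H2-K1, H2-Q7 and B2m lay low where the C1q sum lay low. The part of other cells in that pattern was not tested.

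H2-Q10 ran the other way, at 94.0 and 65.7 CPM in the lowest class and 244 and 177 CPM in the highest class of the sorted tumor libraries. H2-D1 took no single direction, at 1302 and 1105 CPM in the lowest and 1177 and 1099.6 CPM in the highest, with its lowest values in between. In the highest class of sorted blood neutrophils, H2-Q10 was at 518 and 522 CPM and H2-D1 at 2156 and 2253 CPM, so both genes were lower in sorted tumor than in sorted blood neutrophils there too. Nlrc5 was at 27.7 and 34.7 CPM in the highest tumor class and at 11.9 and 23.8 CPM in the highest blood class. H2-Q7 was at 14.7 and 9.81 CPM in the highest tumor class and 8.65 and 13.3 CPM in the highest blood class, where the groups overlapped. No test was run within classes.

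**Figure D3:**
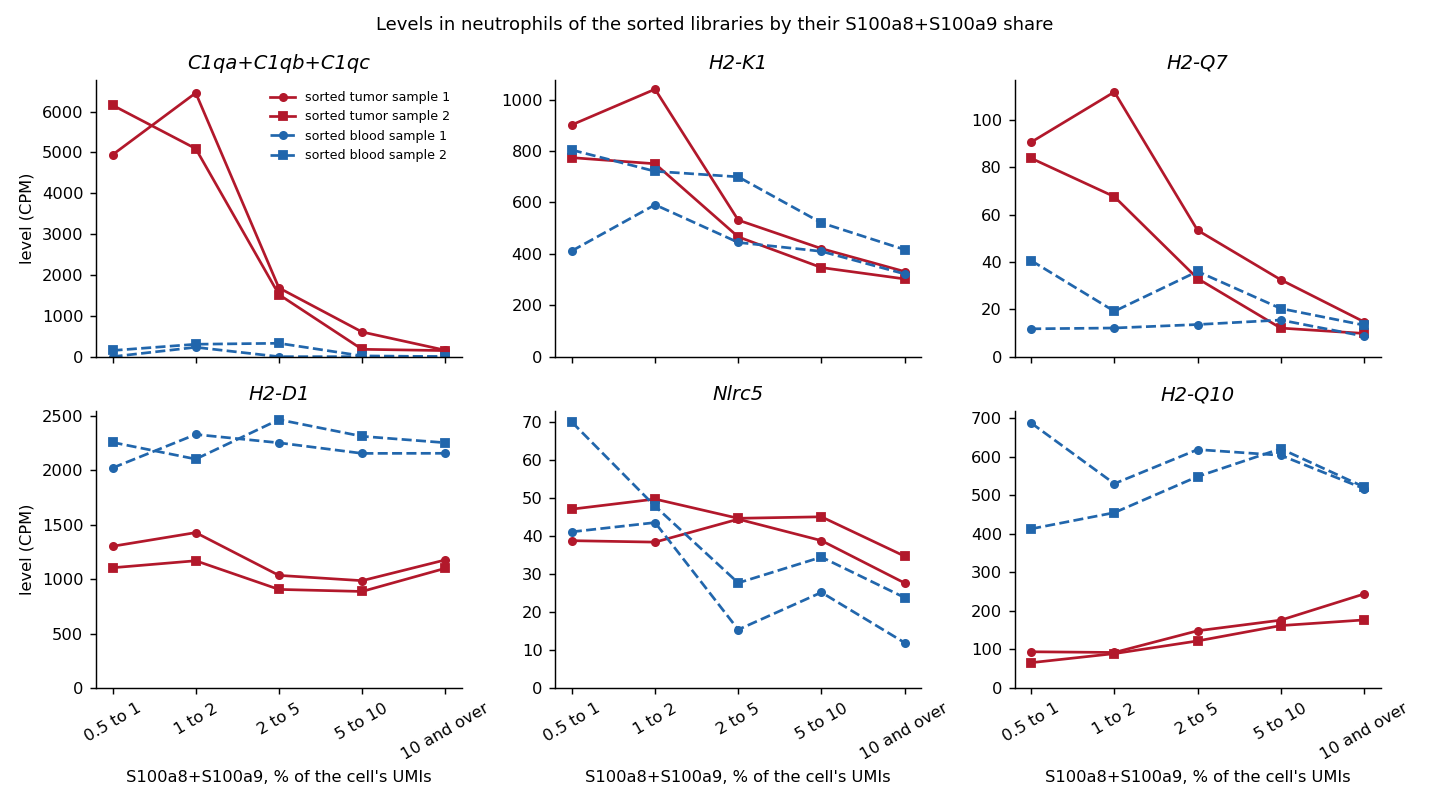
Level in CPM (linear axes) of the C1q sum and of 5 genes by class of S100a8 plus S100a9 share of the cell's UMIs (x axis, percent, low to high), one line per library, tumor solid red and blood dashed blue. In the sorted tumor libraries the C1q sum, H2-K1 and H2-Q7 lie lowest in the 10% class, H2-Q10 lies highest there, and the tumor lines of H2-D1 and H2-Q10 stay below the blood lines in every class.

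In the CD45+ tumor libraries, neutrophils were compared with the other cells of the same library, a fit with the library as a block. There 4 of the 10 genes were higher in neutrophils and none was lower, where 18.3% and 21.7% of the 16181 genes tested were higher and lower and 40.0% passed in either direction. At an unadjusted p under 0.05, 5 of the 10 passed in either direction, and DESeq2 called 4. The median log2 change was 0.14 over the 10 genes and -0.15 over all genes. H2-Q10 was at 136 and 85.6 CPM in neutrophils, against 1.70 and 2.04 CPM in other cells, from 120 and 226 UMIs in the other cells. The log2 change was 6.04 ± 0.20 (edgeR adjusted p = 2.83e-198, n = 2 libraries), and after thinning 14.0% and 11.7% of neutrophils but 0.260% and 0.318% of other cells had a UMI of it. With 2 libraries and a block, the p-values of this comparison rest on a spread taken over all genes. The size of this p-value therefore does not measure the spread of H2-Q10 between the libraries.

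Nlrc5 was at 57.8 and 41.1 CPM in CD45+ tumor neutrophils and at 47.4 and 28.0 CPM in other cells (log2 change 0.65 ± 0.18, edgeR adjusted p = 9.76e-04). It was higher in neutrophils within each library, by less than the distance between libraries. H2-Q4 was at 17.1 and 31.1 CPM in neutrophils and 14.3 and 18.1 CPM in other cells (log2 change 0.81 ± 0.23, edgeR adjusted p = 0.00152). From the first library alone, a value with no test, its log2 change was 0.45. H2-D1 was at 587 and 999 CPM in neutrophils and 508 and 950 CPM in other cells, so the second library lay higher in both classes. The log2 change was 0.35 ± 0.14 (edgeR adjusted p = 0.0328). The mean CPM was 793 in neutrophils and 729 in other cells, so part of this log2 change came with the TMM scaling. Without the shared barcodes H2-D1 had a log2 change of 0.31 and an edgeR adjusted p of 0.074.

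The other 6 genes did not pass between neutrophils and other cells. H2-K1 was at 557 and 634 CPM in neutrophils and 719.7 and 726 CPM in other cells, with a log2 change of -0.07 (edgeR adjusted p = 0.754). H2-Q7 was at 45.7 and 74.0 CPM in neutrophils and 87.7 and 91.9 CPM in other cells (log2 change -0.35, edgeR adjusted p = 0.0691). B2m was at 910 and 1322 CPM in neutrophils and 902 and 1389 CPM in other cells, and Tap1 at 57.1 and 44.2 CPM in neutrophils and 68.8 and 47.3 CPM in other cells. B2m, Tap1, Tap2 and Tapbp had log2 changes of 0.18, 0.04, -0.03 and 0.09, and their levels overlapped between the classes. For B2m, Tap1 and Tapbp the mean CPM was lower in neutrophils, so the positive sign came with the TMM scaling and no direction was read. The 2 libraries differed in Tap2, at 7.14 and 30.3 CPM in neutrophils and 13.8 and 30.8 CPM in other cells. The neutrophil values rest on 10 and 109 UMIs.

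Of these 6 genes, 3 were lower in neutrophils without macrophage-marker UMIs than in other cells. Among the 174 and 80 CD45+ tumor neutrophils with no macrophage-marker UMI, H2-K1 was at 335 and 452 CPM, H2-Q7 at 21.8 and 18.8 CPM and B2m at 557 and 898 CPM, and each of the 3 was lower than in other cells. The log2 changes were -0.85 for H2-K1 (edgeR adjusted p = 1.00e-04), -2.05 for H2-Q7 (edgeR adjusted p = 1.79e-04) and -0.61 for B2m (edgeR adjusted p = 0.00273). Tap1, Tap2 and Tapbp still did not pass, with log2 changes of -0.65, -0.79 and -0.41 (edgeR adjusted p = 0.334, 0.560 and 0.387). H2-Q10 alone was still higher (log2 change 6.69, edgeR adjusted p = 6.77e-29), while H2-D1 was at -0.12, Nlrc5 at 0.23 and H2-Q4 at 0.10, and none of these 3 passed. These values rest on few cells.

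The other cells were clustered without the 10 genes, and clusters were named from fixed markers. H2-K1 was at 1186.5 and 1459.8 CPM in T cell-like, 1159.9 and 1202 CPM in microglia-like, 962 and 1033 CPM in dendritic cell-like and 870.0 and 935 CPM in plasmacytoid dendritic cell-like cells. It was at 803 and 822 CPM in macrophage-like, 596 and 747 CPM in B cell-like, 511 and 546 CPM in mast cell or basophil-like and 425 and 474 CPM in monocyte-like cells. Neutrophils by the 0.5% rule, at 557 and 634 CPM, stood between the B cell-like and the mast cell or basophil-like cells. Of neighbours in this order, T cell-like and microglia-like cells overlapped, as did B cell-like cells and neutrophils, and the others did not. Neutrophils with no macrophage-marker UMI, at 335 and 452 CPM, lay below the mast cell or basophil-like cells and overlapped the monocyte-like cells. The T cell-like cluster also counted 7 of 8 microglia markers at a median of 14398 UMIs per cell, and 27.1% and 19.5% of cells stayed unnamed. One unnamed cluster of 426 and 233 cells, which counted all 7 T cell markers and all 6 natural killer cell markers, had 1587 and 1745 CPM of H2-K1. The dendritic cell-like class joined a cluster of 171 and 204 cells led by Ccr7 and Fscn1, with 1552 and 1595 CPM of H2-K1, and a larger one of 478 and 517 cells with 828 and 880 CPM. At a clustering resolution of 0.5, where the T cell-like class took in 606 and 307 cells, its H2-K1 was at 1339 and 1600.0 CPM and no longer overlapped the 1112 and 1176 CPM of microglia-like cells.

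H2-Q7 followed a similar order. It was at 207 and 341 CPM in T cell-like, 199 and 231 CPM in dendritic cell-like, 143 and 148 CPM in microglia-like and 82.4 and 192 CPM in B cell-like cells. It was at 111 and 108 CPM in plasmacytoid dendritic cell-like, 81.3 and 80.3 CPM in macrophage-like, 53.7 and 92.5 CPM in mast cell or basophil-like and 31.3 and 40.9 CPM in monocyte-like cells. Neutrophils by the 0.5% rule, at 45.7 and 74.0 CPM, overlapped the mast cell or basophil-like cells and lay above the monocyte-like cells. Neutrophils with no macrophage-marker UMI, at 21.8 and 18.8 CPM from 6 and 3 UMIs, lay below the monocyte-like cells. The unnamed cluster with T cell and natural killer cell markers had 434 and 592 CPM, and the Ccr7 and Fscn1 cluster inside the dendritic cell-like class had 589 and 625 CPM, both above each class as a whole. The larger dendritic cell-like cluster had 110.5 and 124 CPM. At resolution 0.5 the monocyte-like class was at 18.6 and 25.1 CPM, which overlapped the neutrophils with no macrophage-marker UMI.

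Among the named classes, Tap1 had its highest mean in dendritic cell-like and Nlrc5 in T cell-like cells. Tap1 was at 157 and 111 CPM in dendritic cell-like, 118 and 80.7 CPM in plasmacytoid dendritic cell-like, 83.3 and 95.1 CPM in T cell-like and 84.0 and 63.7 CPM in microglia-like cells. The remaining classes lay between 27.8 and 65.1 CPM, with neutrophils at 57.1 and 44.2 CPM, and each pair of neighbours in the order overlapped. Nlrc5 was at 104 and 72.4 CPM in T cell-like and 93.9 and 68.3 CPM in dendritic cell-like cells, and at 33.5 and 19.4 CPM in monocyte-like cells, the class with the lowest mean. Neutrophils, at 57.8 and 41.1 CPM of Nlrc5, lay inside the range of the other classes. Here too the neighbours in the order overlapped. The class values again joined unlike clusters, since Nlrc5 was at 249.7 and 192 CPM in the Ccr7 and Fscn1 cluster and at 58.3 and 34.7 CPM in the larger dendritic cell-like cluster. In the unnamed cluster with T cell and natural killer cell markers Nlrc5 was at 217 and 148 CPM and Tap1 at 149 and 103 CPM. At resolution 0.5 the monocyte-like class had 13.7 and 12.9 CPM of Nlrc5 and 29.4 and 24.5 CPM of Tap1, and the T cell-like class had 147 and 109.7 CPM of Nlrc5.

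H2-Q10 was at most 5.66 CPM in 7 of the 8 named classes. Mast cell or basophil-like cells had 114 and 50.9 CPM, which overlapped the 136 and 85.6 CPM of neutrophils. That cluster also counted 8 neutrophil markers, and the part of neutrophil RNA in its H2-Q10 was not tested. H2-D1 differed between the libraries in each class, at 325 and 810 CPM in B cell-like, 667 and 1392 CPM in T cell-like, 575 and 1084 CPM in macrophage-like and 373 and 716 CPM in monocyte-like cells. The second library was higher in all 8 named classes, so no order of classes was read for H2-D1.

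**Figure D4:**
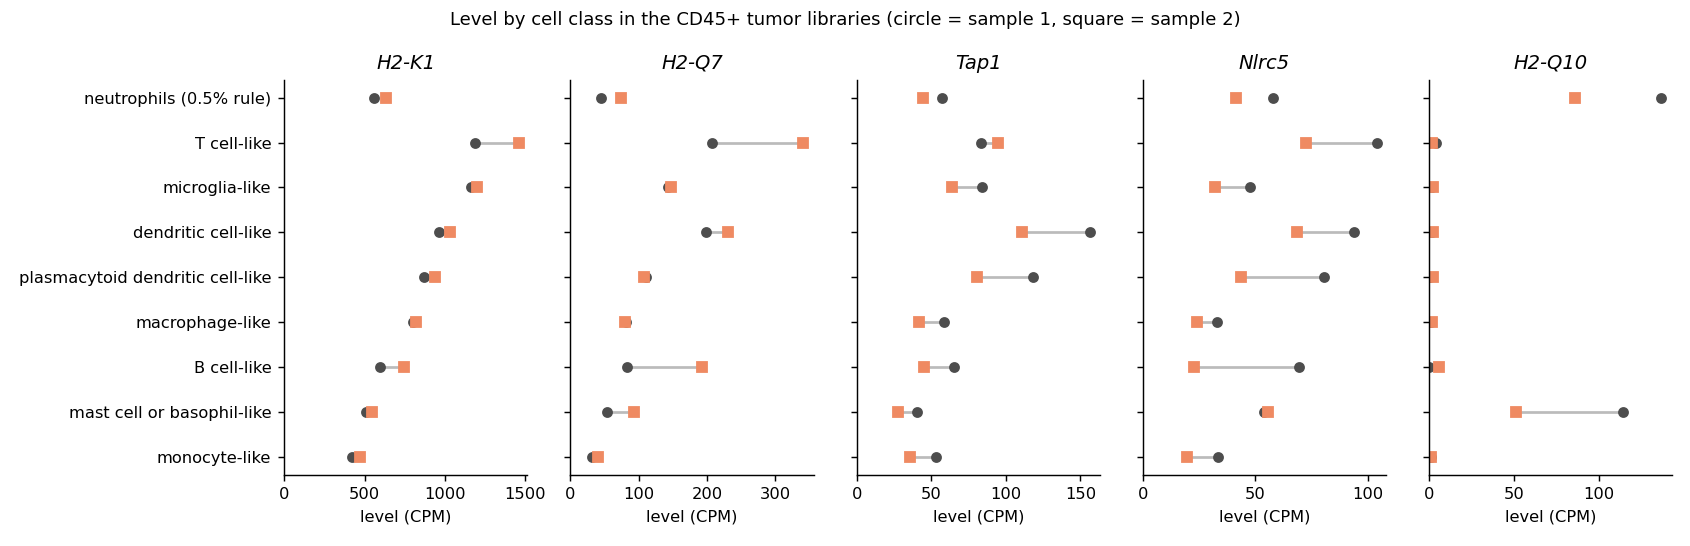
Level in CPM (linear axes) of 5 genes in the neutrophils and in 8 named classes of other cells of the CD45+ tumor libraries, with a circle for sample 1 and a square for sample 2. Of the classes plotted, H2-K1 and H2-Q7 have their highest means in T cell-like cells and Tap1 in dendritic cell-like cells, and H2-Q10 reaches 136 and 85.6 CPM in neutrophils with 114 and 50.9 CPM in mast cell or basophil-like cells.

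Likeness of pattern was measured over 24 sums, the neutrophils of 6 libraries, the other cells of the CD45+ libraries and their named classes, among 3435 genes of at least 50 CPM on average. The sums share libraries and cells, so Pearson's r of log2(CPM + 10) is a description only. The gene most like H2-K1 was H2-Q7 (r = 0.909), followed by Tent5c (0.818) and Sdf4 (0.817). Tap1 was most like Rab43 (0.904), Ust (0.900) and Sod1 (0.900), and Nlrc5 most like Parp14 (0.775), Traf1 (0.767) and Wnk1 (0.714). H2-Q10, added after its values were seen, was most like Asprv1 (0.989), Dhrs9 (0.986) and Gm16556 (0.983).

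Neutrophils that came through the sort were then set beside neutrophils of the unselected CD45+ libraries from the same kind of tumor. None of the 10 genes passed, where 3.35% of the 12564 genes tested were higher, 5.25% lower and 8.60% either. At an unadjusted p under 0.05, 3 of the 10 passed in edgeR, and DESeq2 called 2. The median log2 change was 0.25 over the 10 genes and -0.03 over all genes. H2-Q10 was at 162 and 139 CPM in sorted tumor neutrophils and at 136 and 85.6 CPM in CD45+ tumor neutrophils (log2 change 0.82 ± 0.23, edgeR adjusted p = 0.061). H2-D1 was at 1139 and 997 CPM in sorted tumor and 587 and 999 CPM in CD45+ tumor neutrophils (log2 change 0.79 ± 0.27, edgeR adjusted p = 0.0914), the second CD45+ library lying inside the sorted range. H2-Q4 had a log2 change of 0.85 ± 0.28 (edgeR adjusted p = 0.0873).

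Single CD45+ libraries decided these values. Without the second CD45+ library, H2-D1 had a log2 change of 1.25 (edgeR adjusted p = 0.0016), H2-Q4 of 1.43 (edgeR adjusted p = 0.0045) and Tap2 of 2.24 (edgeR adjusted p = 4.53e-04). Without the first, H2-Q10 had 1.17 (edgeR adjusted p = 4.14e-05). Among neutrophils with no macrophage-marker UMI, H2-Q10 was at 189 and 158 CPM in sorted tumor and 193 and 176 CPM in CD45+ tumor neutrophils. The groups overlapped, and the log2 change of 0.11 (edgeR adjusted p = 0.92) took its positive sign from the scaling, since the mean CPM was lower in sorted tumor neutrophils. The CD45+ tumor neutrophils held more macrophage RNA, with C1q sums of 2144 and 1581 CPM in sorted tumor and 2916 and 4511 CPM in CD45+ tumor neutrophils, and its part in the differences was not tested further.

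Last, neutrophils with a UMI of Ifit1, Ifit3 or Rsad2 were set beside neutrophils without one in the same library, all thinned to 1000 UMIs. The split was chosen after seeing the data and is given as a description, with no test. Such cells made up 16.1% and 17.4% of sorted tumor, 5.04% and 9.37% of sorted blood and 11.3% and 17.3% of CD45+ tumor neutrophils. Tap1 was at 77.5 and 57.8 CPM in sorted tumor neutrophils with such a UMI and 19.9 and 14.8 CPM in those without, and over the 6 libraries it was 2.01 to 5.15 times as high. In sorted blood, Tap1 was at 83.3 and 75.7 CPM with such a UMI and 33.1 and 37.6 CPM without. Nlrc5 was 1.46 to 3.94 times as high, B2m 1.23 to 2.07 times and H2-K1 1.22 to 1.72 times, so these 4 genes lay higher in such cells in all 6 libraries. Some ratios rest on few UMIs. For Tap1 such cells held 7 UMIs in the first CD45+ library and 14 in the second, the one with 5.15. For Nlrc5 they held 5 in the first sorted blood and 7 in the first CD45+ library.

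H2-D1 had ratios of 1.01 to 1.33 by this split. Where more than 3 UMIs stood on each side, Tap2 had ratios of 0.846 to 2.19 and H2-Q7 of 1.13 to 2.42. Tapbp had ratios of 0.944 to 2.03 and was higher in such cells in 5 of 6 libraries. H2-Q10 had ratios of 0.612 to 1.06. In sorted tumor neutrophils H2-Q10 was at 117 and 119 CPM with such a UMI and 191 and 166 CPM without, below in both libraries, while in sorted blood it was at 556 and 556 CPM with and 592 and 553 CPM without. H2-Q4 was at 94.5 and 52.4 CPM in sorted tumor neutrophils with such a UMI and 25.3 and 23.6 CPM without. In sorted blood it was at 20.8 and 44.9 CPM with and 28.4 and 27.6 CPM without. In CD45+ tumor neutrophils H2-Q4 was at 0 and 29.2 CPM with and 17.5 and 21.4 CPM without. The lower values with such a UMI rest on 3 UMIs in the first sorted blood library and 0 in the first CD45+ library. No direction was read in those libraries. Elsewhere the H2-Q4 ratios were 3.73 and 2.22 in sorted tumor, 1.63 in the second blood and 1.37 in the second CD45+ library. The last rests on 4 UMIs in such cells. The C1q sums differ between tumor and blood neutrophils as given above, and the part of macrophage-marked cells in this split was not tested.

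**Figure D5:**
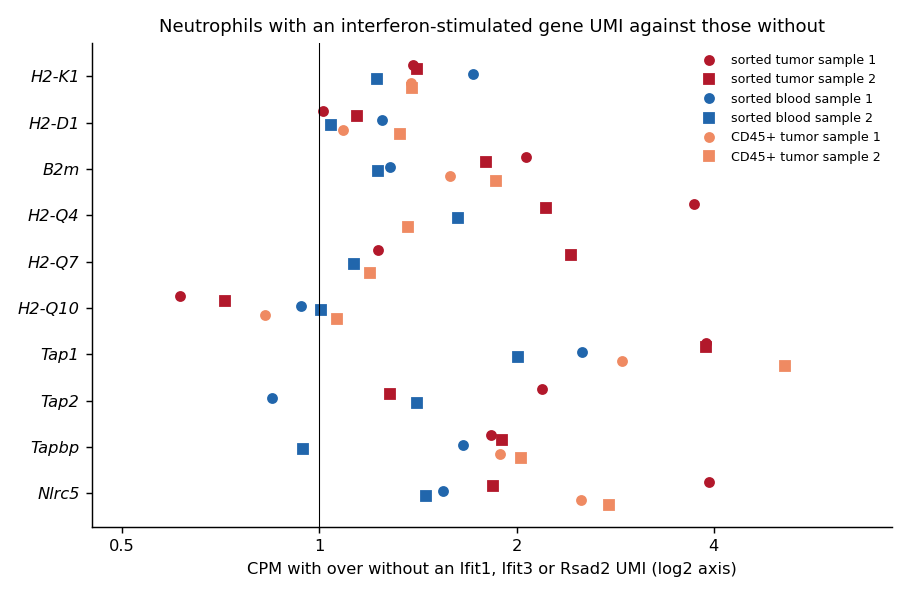
Ratio of CPM in neutrophils with a UMI of Ifit1, Ifit3 or Rsad2 over CPM in neutrophils without one (x axis, log2 scaled), one point per library, drawn where more than 3 UMIs stood on each side. Tap1 lies at 2.01 to 5.15 and Nlrc5 at 1.46 to 3.94 in all 6 libraries, while H2-Q10 lies at 0.612 to 1.06.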

How the data were processed

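The authors deposited filtered matrices of raw UMI counts, whole numbers for each cell and gene with no normalization. The submitters' processing notes name Cell Ranger 7.1.0 and mm10, and the sources used here do not give the gene annotation behind them. Per the labels' protocols, 20000 cells were loaded per lane with a target of 40000 reads per cell. The libraries held 4158 and 6612 barcodes (sorted tumor), 3121 and 5330 (sorted blood) and 9418 and 8851 (CD45+ tumor), with 13945799 to 129422458 UMIs each.

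A cell was kept from 200 detected genes and up to 10% mitochondrial UMIs. Scrublet's own threshold, which marked at most 0.128% of cells, was set aside, and doublets were taken as the top scores at 0.8% per 1000 cells (39 to 677 per library). Counts were summed per library and class and tested with edgeR 4.0.16 (limma 3.58.1, R 4.3.3) after filterByExpr and TMM scaling. The SE is the size of the log2 change divided by the square root of F. DESeq2 1.42.0 was an alternative. TMM scaling put the median gene at -0.15 in place of -0.28 (neutrophils over other cells) and at -0.03 in place of -0.34 (sorted over CD45+ tumor neutrophils) on the log2 scale. Clusters were made with scanpy 1.11.5 (Leiden, resolution 1, 2000 variable genes, 30 components), leaving out the 10 genes. A class needed at least 50 cells in each library. Shares were taken after thinning to 1000 UMIs, with exact Clopper-Pearson intervals at 95%. Intervals cover counting error only.

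The 10 genes and all lists were chosen with earlier results of these data known. The genes named are the 10 in each comparison and, from each other list, up to 2 with the largest rise and 2 with the largest fall among those that passed in tumor against blood. Replicates of a group differed by more than sampling noise (10.5 to 22.9 as chi-square over its degrees of freedom). Deviations of same-numbered samples correlated at -0.0993 (sorted tumor and blood) and -0.0322 (sorted and CD45+ tumor), so numbers were not taken to pair samples. On simulated counts with 200 changed genes, the tumor and blood test recovered 74% of 2-fold and 99% of 4-fold changes over 13662 genes. The neutrophil and other cell test recovered 47% and 87% over 16181 genes, and the sorted and CD45+ test 17% and 85% over 12564 genes. False calls were 6.49%, 4.96% and 2.86% of calls. In the simulation all genes had the same spread beyond counting noise, and only genes with enough counts were changed. Real genes differ in spread and counts, so these shares were not taken as those of the data. Gene coordinates are those of GENCODE vM21 on mm10, 1-based, and promoters those of RefSeq on GRCm38.p6.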

Additional observations from a re-analysis of the deposited data

How the results depend on the processing

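In tumor against blood, no direction of the 10 genes changed in 17 alternatives, and H2-D1, Tap2, H2-Q10 and Nlrc5 passed in all of them. H2-Q7 and Nlrc5 rest on as few as 136 and 208 UMIs in a sorted blood library, which limits how small a change can be seen, and with 2 libraries a group 1 library can decide a call. The labels put 2 samples in each group, and where a group was left with 1 library, that library was assumed to vary like the others. For the other results the cause of a change was not tested. The fits without the shared barcodes, and with neutrophils from 2% of UMIs and no macrophage-marker UMI, were chosen after seeing the data.

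In tumor against blood, 4 genes of the 10 were higher and 5 lower, and this became 2 higher and 3 lower without macrophage-marked cells, 2 and 3 when those were also required to hold 2% of UMIs, 2 higher in a fit of all 3 neutrophil groups, 3 lower after thinning, 3 lower after subtracting RNA of other cells and 3 lower without shared barcodes. Leaving out 1 library gave 2 to 4 higher and 3 to 5 lower. Over all genes, 4544 higher and 4208 lower became 2893 and 2778 after thinning, and 2719 lower after subtraction. Fitting the replicate block changed no count by over 1.5 times (4515 higher, 4182 lower; 3 and 5 of the 10 genes, with B2m at an edgeR adjusted p of 0.061).

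In CD45+ neutrophils against other cells, 4 genes of the 10 were higher and 0 lower. Lower became 1 without the count filter, 1 at 2% of UMIs, 3 without macrophage-marked cells, 3 with both, and 2 after thinning. Higher became 1 without macrophage-marked cells, 1 with both, 2 after thinning, 0 after subtraction and 1 with no replicate block. Over all genes, 2962 higher became 1346 without macrophage-marked cells, 1079 with both, 1 after subtraction and 1654 with no replicate block, and 3516 lower became 1741 in DESeq2, 2175 with both, 0 after subtraction and 1177 with no replicate block. Subtraction took off 72.5% and 96.3% of the profile of other cells from these neutrophils, which leaves few counts.

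Signs turned for 8 of the genes in that comparison, as log2 changes. H2-K1 was 0.046 with RLE factors, 0.036 in DESeq2 and 0.044 with no doublet removal (-0.18 to 0.045 leaving out 1 library). Tap2 was 0.073 with RLE factors, 0.19 with no doublet removal, 0.019 after thinning and 0.080 with no replicate block (-0.76 to 0.22 leaving out 1). Tap1 was -0.045 without the count filter, -0.18 at 2%, -0.65 without macrophage-marked cells, -0.48 with both, -0.13 after thinning and -5.02 after subtraction (-0.083 to 0.14 leaving out 1). B2m was -0.14 at 2%, -0.61 without macrophage-marked cells, -0.72 with both, -0.0011 after thinning and -6.24 after subtraction. H2-D1 was -0.12 without macrophage-marked cells, -0.032 with both and -1.88 after subtraction. Tapbp was -0.41 without macrophage-marked cells, -0.29 with both, -0.038 after thinning and -3.80 after subtraction (-0.052 to 0.22 leaving out 1). Nlrc5 was -0.52 after subtraction, and H2-Q4 was -0.29 after subtraction and -0.031 with both.

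In sorted against CD45+ tumor neutrophils, 421 genes were higher and 659 lower. Higher became 635 in DESeq2, 1343 without the count filter, 0 at 2%, 2163 with no doublet removal, 19 without macrophage-marked cells, 16 with both, 17 after thinning, 2364 after subtraction, 14 without shared barcodes, 228 with the replicate block and 1263 in a fit of all 3 groups. Lower became 1348 without the count filter, 0 at 2%, 2416 with no doublet removal, 97 without macrophage-marked cells, 71 with both, 127 after thinning, 121 after subtraction, 72 without shared barcodes and 349 with the replicate block. Leaving out 1 library gave 4 to 1305 higher and 37 to 1651 lower. Of the 10 genes, 0 were higher, and 2 were in DESeq2, 4 without the count filter, 2 with no doublet removal, 3 after subtraction and 1 in a fit of all 3 groups (0 to 3 leaving out 1). Nlrc5 turned to -0.13 at 2%, -0.051 after thinning, -0.155 after subtraction and -0.011 with both (-0.11 to 0.35 leaving out 1). H2-Q7 turned to 0.033 without macrophage-marked cells and 10.23 after subtraction (-0.59 to 0.20 leaving out 1). After subtraction Tap1 was 1.85, Tapbp 1.73 and H2-Q10 -0.51.

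Of 80 shares of cells, 78 moved by at least the standard deviation of the 2 libraries with no thinning or thinning to 500 UMIs. Of 70 levels by class, 16 moved by that measure at resolution 0.5, monocyte-like Nlrc5, H2-Q7 and Tap1 by over 1.5 times.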
